A study of Mus musculus with 3 samples.

Results

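The mouse zinc finger protein genes described here are those named Zfp followed by a number of 3 digits that begins with 7, 8 or 9, taken by name alone. There were 99 of them among the 17857 genes of the count table, and all 99 symbols matched RefSeq. Another 9 names with a letter after the number fell outside the rule, and 228 genes numbered below 700 served for comparison. The genes were measured by bulk RNA sequencing in 3 libraries of one kind, with no control group. The cells came from lymph nodes draining B16F10 tumours, a transplantable mouse melanoma line, implanted in both thighs of C57BL/6 mice (the strain label reads C57BL/6J) that received no treatment. Nodes were taken at day 14, pooled and sorted for cells without CD11c that carried Ly6C and c-kit, and 8 ng of total RNA went into each library. The 3 libraries, called replicates 1, 2 and 3, are labelled as repeats of the same experiment, and the number of mice behind each pool is not given in the sources used here. With no other group, each level was set against fixed levels and against genes that leukocytes rarely read, and the p-values reflect variation among these libraries only, part of which may be technical.

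C2H2 zinc finger proteins bind DNA through repeated fingers, each held together by a zinc ion between a pair of cysteines and a pair of histidines. Many carry a KRAB domain at the start of the protein, which recruits Trim28 and, through it, the histone methyltransferase Setdb1, heterochromatin proteins and histone deacetylases. KRAB zinc finger genes spread by local duplication, lie in clusters of close relatives, and are best known for silencing retroviral elements in embryonic cells. The number in a Zfp name is an order of naming and says nothing about function.

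A finger is shown first, to show how far close relatives differ in it. The stretches below are 84 coding bases, from GENCODE M21 transcripts, that span the fifth finger of Zfp942 and its linker, with the aligned stretches of Zfp944 and Zfp943 from the same cluster on chromosome 17. Capitals in Zfp942 mark the 23 positions at which any of the 3 differ, and capitals in the others mark where each differs from Zfp942.
Zfp942: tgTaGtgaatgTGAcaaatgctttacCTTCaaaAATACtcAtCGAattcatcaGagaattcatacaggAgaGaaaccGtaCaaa
Zfp944: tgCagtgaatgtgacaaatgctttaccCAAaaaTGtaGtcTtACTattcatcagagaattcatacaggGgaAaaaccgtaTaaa
Zfp943: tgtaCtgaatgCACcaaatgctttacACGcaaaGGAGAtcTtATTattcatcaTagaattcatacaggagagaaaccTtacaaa
Zfp944 differed from Zfp942 at 14 positions (83.33% equal) and Zfp943 at 18 (78.57% equal). The capitals fall in short patches, with longer shared runs between them.

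Next come the 200 bases before the gene in GRCm38.p6, from RefSeq, for a member at the top of the range (Zfp871, chr17:32788288-32788487, minus strand), a known retroviral silencer (Zfp809, chr9:22225467-22225666, plus strand) and a member near background (Zfp819, chr7:43606935-43607134, plus strand). Capitals mark CCAAT on either strand, a motif that a larger share of these promoters held than of other promoters.
Zfp871: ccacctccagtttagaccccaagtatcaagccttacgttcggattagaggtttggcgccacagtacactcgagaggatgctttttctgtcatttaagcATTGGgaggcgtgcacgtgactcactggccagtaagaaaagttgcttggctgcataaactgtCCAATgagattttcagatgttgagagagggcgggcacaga
Zfp809: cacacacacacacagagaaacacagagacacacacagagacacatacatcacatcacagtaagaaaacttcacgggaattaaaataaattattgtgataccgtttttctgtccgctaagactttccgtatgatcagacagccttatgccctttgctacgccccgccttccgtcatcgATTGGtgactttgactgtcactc
Zfp819: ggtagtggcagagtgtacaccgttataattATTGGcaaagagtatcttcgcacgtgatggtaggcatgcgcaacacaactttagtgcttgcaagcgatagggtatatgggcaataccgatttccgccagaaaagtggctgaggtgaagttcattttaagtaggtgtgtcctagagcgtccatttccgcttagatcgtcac
The stretch of Zfp871 held CCAAT in both orientations, and those of Zfp809 and Zfp819 each held the reverse, ATTGG. The motif was thus present before both the high and the low member shown, which says nothing of other members at either end.

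The libraries held 9077195, 13885509 and 13861430 counts. Levels are given as CPM, counts scaled to a library total of 1000000 after TMM factors of 1.043, 1.01 and 0.9499, and as CPM per kilobase of the gene length in the table. Levels of different genes are ranked per kilobase, while the tests against 1 and 50 CPM take no account of length. A level of 3 counts, the limit that a count of 0 allows, was 0.317, 0.214 and 0.2278 CPM. The members took 0.2402%, 0.274% and 0.2716% of all counts in replicates 1 to 3. Their 95% Wilson intervals, which cover counting error only, ran from 0.2371% to 0.2434%, from 0.2712% to 0.2767% and from 0.2689% to 0.2744%. By this share replicate 1 lay lowest. The totals include counts of mitochondrial genes, given below, which took their largest share in replicate 1. The members' share without them was not computed, so this order depends on the totals used. Replicate 1 differed from the other libraries in its low counts: 357 of 578 olfactory receptor (Olfr) genes had a count there, against 51 in replicate 2 and 116 in replicate 3. The libraries also differed in erythroid genes (6 genes, 5 above 1 CPM), which summed to 3682, 50.06 and 258.2 CPM. Macrophage genes (6 genes, all 6 above 1 CPM) summed to 922.6, 94 and 214.2 CPM. Mitochondrial genes took 17.76%, 6.222% and 13.1% of all counts. Each of these was highest in replicate 1. T cell genes summed to 3035, 3760 and 3784 CPM, with all 8 above 1 CPM in the test described below, while Kit, which encodes the sorted c-kit, stood at 9.83, 5.35 and 5.92 CPM. Of the genes for Ly6C, Ly6c2 stood at 11.5, 121 and 41.2 CPM and Ly6c1 at 19.1, 4.28 and 17.6 CPM, in opposite orders of the libraries. The gene for CD11c, Itgax, was also read, at 26.9, 43.2 and 24.0 CPM.

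Most of the late-numbered Zfp genes were detected. A count was present for 97, 93 and 95 of the 99 members in replicates 1 to 3 (98%, 93.9% and 96%), against 96.5%, 78.8% and 87.7% of all genes and 61.8%, 8.82% and 20.1% of Olfr genes, which encode odorant receptors and serve as the background. In replicate 1 the share of members was thus near that of all genes. All 3 libraries held a count for 91 members (76.1% of all genes), and 88 members had at least 3 counts in each (70.3% of all genes). Lower-numbered Zfp genes were detected as widely, with 213 and 206 of 228 by these measures. The pooled Olfr rate was 0.255, 0.02243 and 0.05249 CPM per kilobase. Members over that rate numbered 93 in each library, and 89 of the 99 were over it in all 3. So were 72.4% of all genes, 205 of 228 lower-numbered Zfp genes and 8 Olfr genes. The edgeR quasi-likelihood test against that rate took genes with at least 10 counts in sum. Of the 95 members tested, 88 were above it at an adjusted p under 0.05 (92.6%). The share was 83.2% of the 15490 genes tested and 90.6% of lower-numbered Zfp genes. That background is low, as it pools all 578 Olfr genes, most of them with too few counts to test. Of the 42 Olfr genes tested, 23 also passed it. Their median was 0.4637 CPM per kilobase, against 0.06199 over all Olfr genes, so the filter on counts partly fixed this share. Set against the 95th percentile of single Olfr genes (0.9061, 0.1512 and 0.3205 CPM per kilobase), 80 of the 95 members passed, as did 69% of all genes tested. The 7 members tested that did not pass the pooled rate were Zfp711, Zfp786, Zfp791, Zfp819, Zfp820, Zfp853 and Zfp872.

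**Figure D1:**
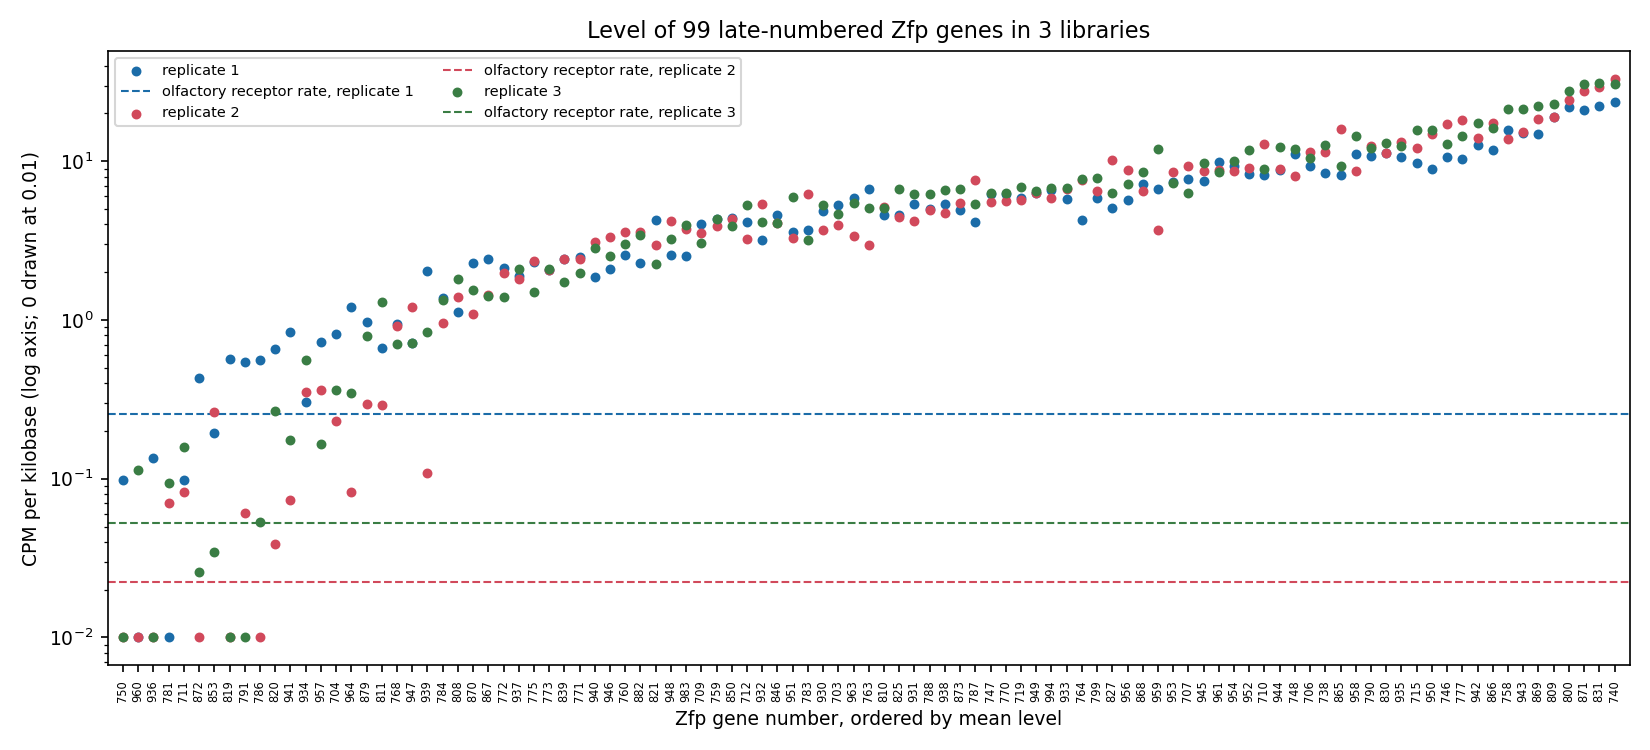
CPM per kilobase (log axis, 0 drawn at 0.01) of each of the 99 members in replicates 1 (blue), 2 (red) and 3 (green), ordered by mean level and labelled with the gene number. Dashed lines are the pooled Olfr rates of 0.255, 0.02243 and 0.05249 CPM per kilobase, and the points of the lower members spread apart, with replicate 1 mostly on top.

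Against 1 CPM, 79 of the 95 members tested were above it (83.2%), where 68.6% of all genes tested and 87% of the lower-numbered Zfp genes (194 of 223) were. The share of the members was thus over that of all genes and under that of the other Zfp genes. The median member stood at 14.9 CPM and at 4.907 CPM per kilobase (quartiles 1.799 and 9.529), against 3.277 for all genes, 5.399 for lower-numbered Zfp genes and 0.06199 for Olfr genes. Among genes tested the order turned, with 5.221 for the members and 5.499 for all. In bulk RNA, few cells with much RNA of a gene and many cells with little cannot be told apart.

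High levels were uncommon. Above 50 CPM the test called 5 members (5.26%), against 19.9% of all genes and 16.6% of lower-numbered Zfp genes (37 of 223). Below 50 CPM it called 71 (74.7%), against 66.8% of all genes. The remaining 19 were not separated from 50 CPM: 18 had means from 36.4 to 64.6 CPM, and Zfp819, at 0.458 CPM, was the exception. No member exceeded 29.2 CPM per kilobase, a level at the 85.3rd percentile of the genes tested.

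**Figure D2:**
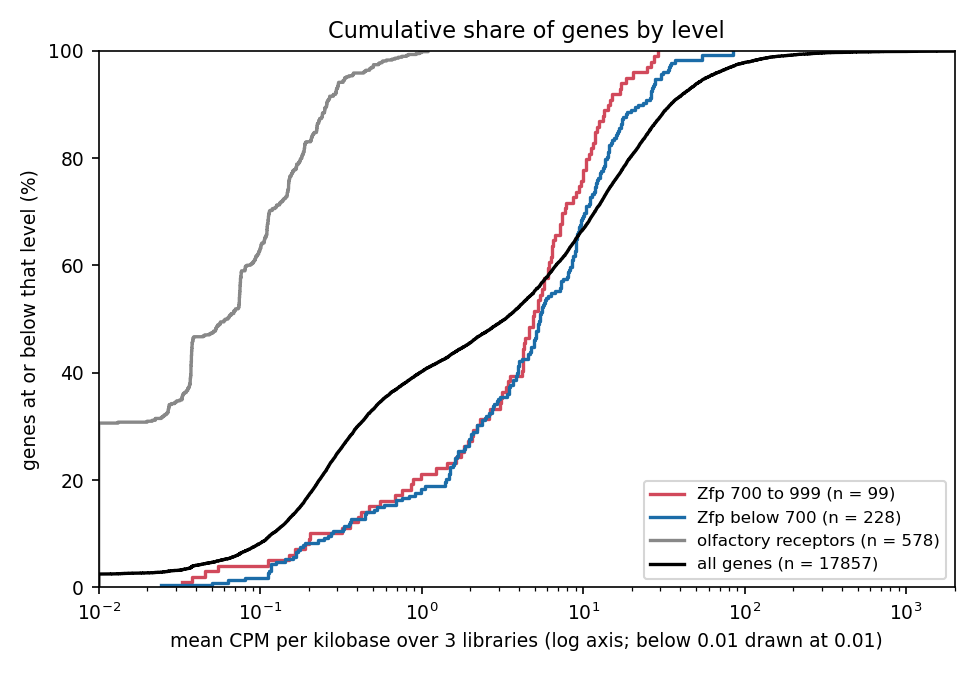
Percent of genes (vertical axis) at or below each mean CPM per kilobase over the 3 libraries (horizontal log axis) for the 99 members, 228 lower-numbered Zfp genes, 578 Olfr genes and all 17857 genes. The members rise through a narrow middle range, from a lower quartile of 1.799 to an upper one of 9.529, and end at 29.2 CPM per kilobase, while all genes extend well beyond.

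Of the 5 members above 50 CPM, Zfp871, a KRAB protein with 15 fingers by pattern, stood at 227, 300 and 330 CPM (26.3 ± 4.90 CPM per kilobase, SD, n = 3). Its adjusted p against 50 CPM was 1.16e-06 in edgeR. Zfp831, a large protein of 1628 residues with 2 fingers, stood at 219, 288 and 304 CPM (27.6 ± 4.62 CPM per kilobase, adjusted p = 1.28e-06). Both were lowest in replicate 1 and highest in replicate 3, and no library of either came near 50 CPM. Together these 2 genes took 19.3%, 21.7% and 22.2% of the summed member level of 2304.2, 2713.0 and 2859.6 CPM.

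Zfp740, a short protein of 180 residues, was the highest per kilobase, with 88.4, 124 and 115 CPM (29.2 ± 4.95 CPM per kilobase, adjusted p = 0.000299). Zfp800, whose human counterpart is a repressor of endocrine fate in the gut, stood at 85.6, 94.7 and 108 CPM (24.7 ± 2.93 CPM per kilobase, adjusted p = 0.000449). Zfp866, a KRAB gene, stood at 68.3, 101 and 92.8 CPM (15.1 ± 2.92 CPM per kilobase, adjusted p = 0.0016). Every library of these 3 genes lay over 50 CPM. Replicate 1 was again the lowest in each.

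Zfp869 came nearest to the call above 50 CPM among members without it, at 51.5, 64.6 and 77.7 CPM (18.5 ± 3.76 CPM per kilobase, adjusted p = 0.0525). It lay over 50 CPM in each library without passing the test. Next in order per kilobase came Zfp943 (17.2 ± 3.58), Zfp758 (16.9 ± 3.87) and, after Zfp866, Zfp942 (14.6 ± 2.43), all KRAB genes of the chromosome 17 cluster shown above. From Zfp869 to Zfp942, each mean differed from the next by less than the SDs of both.

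Among members linked to the silencing of retroviral elements, Zfp809, which binds the proline primer binding site of murine leukaemia viruses and recruits Trim28, stood at 40.3, 40.2 and 48.2 CPM (20.4 ± 2.19 CPM per kilobase). Replicates 1 and 2 were nearly equal and replicate 3 higher. Zfp932, which acts on endogenous retroviruses together with its relative Gm15446, stood at 6.45, 10.9 and 8.43 CPM (4.25 ± 1.11 CPM per kilobase). It was above 1 CPM in every library, but 34.9% of the 50-base words in its transcripts also occur in Gm15446, so reads may be split between these genes. Zfp819, known from embryonic stem cells and the male germ line, had counts of 13, 0 and 0, that is 1.37 CPM in replicate 1. At the Olfr rate of that library 5.82 counts would fall on a gene of its length, so the signal was in the library with the highest background and in no other.

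Members known from other settings lay mostly at intermediate levels. Zfp827, which brings the nucleosome remodelling and deacetylase complex to telomeres, stood at 38.4, 77.2 and 47.8 CPM. Zfp746, also called PARIS and a substrate of parkin, followed the same order of libraries with 39.1, 62.8 and 46.6 CPM. Both were highest in replicate 2, and neither was separated from 50 CPM. Zfp706, a small protein involved in the exit of embryonic stem cells from self-renewal, stood at 41.2, 50.2 and 46.4 CPM. Zfp830, an RNA-processing factor that early embryos need, stood at 37.2, 37.0 and 42.8 CPM, with an adjusted p of 0.0581 against 50 CPM. The libraries of the latter pair lay close together.

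Zfp703, a cofactor of the NET family known from breast cancer, stood at 17.4, 13.2 and 15.3 CPM. Zfp787 stood at 7.82, 14.4 and 10.3 CPM. Both were above 1 CPM and below 50 CPM. Zfp768 stood at 2.11, 2.07 and 1.59 CPM and did not pass against 1 CPM (adjusted p = 0.211). Zfp711, an X-linked factor known from intellectual disability, stood at 0.423, 0.357 and 0.684 CPM. Zfp750, a factor of skin differentiation, had counts of 3, 0 and 0. All 3 libraries of Zfp711 thus lay under 1 CPM, and Zfp750 was at or under the detection limit in each.

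The lowest members per kilobase were Zfp750, Zfp960, Zfp936, Zfp781 and Zfp711, from 0.0326 to 0.113 CPM per kilobase. The first 4 were too low to test, with at most 5 counts in any library. A count of 0 in at least 1 library was found in 8 members. The 16 members tested but not above 1 CPM had means from 0.356 to 2.34 CPM, and 11 of them were highest in replicate 1. Just outside the call were Zfp947 at 1.90, 3.21 and 1.90 CPM (adjusted p = 0.064) and Zfp768, and just inside were Zfp784 at 2.96, 2.07 and 2.89 CPM (adjusted p = 0.0239) and Zfp771 at 3.06, 3.00 and 2.43 CPM (adjusted p = 0.0122). Just outside the call against the pooled Olfr rate were Zfp820 and Zfp853, and just inside were Zfp941 and Zfp964.

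The spread between libraries was small for most members. The SD of log2 CPM (1 count added) had a median of 0.297 over the 95 members tested. It was 0.424 for all genes tested, 0.316 for lower-numbered Zfp genes and 1.93 for the 42 of 578 Olfr genes tested. Olfr genes held 1435, 187 and 411 counts in replicates 1 to 3, so the filter on summed counts favoured those high in replicate 1. Their spread is therefore no fair background for that of the members. With low genes set aside (mean of at least 5 CPM) the medians nearly met, at 0.283 for 76 members and 0.279 for 9590 genes. The highest library was less than 2-fold over the lowest in 78 members (82.1%, against 56.4% of all genes tested). In lower-numbered Zfp genes the share was 77.6%, near that of the members, and none of these shares was matched for level. The highest library was more than 4-fold over the lowest in 29.1% of all genes tested and 10.8% of lower-numbered Zfp genes. Among the members it was so in 10 (10.5%), all with a mean of at most 1.97 CPM. Of these 10, 8 were highest in replicate 1. Across the 95 members, which share the same libraries, log2 levels of replicate 1 correlated with those of replicate 2 at r = 0.918 and of replicate 3 at 0.942, and the latter pair reached 0.962. Over all 15490 genes tested the values were 0.905, 0.931 and 0.95.

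**Figure D3:**
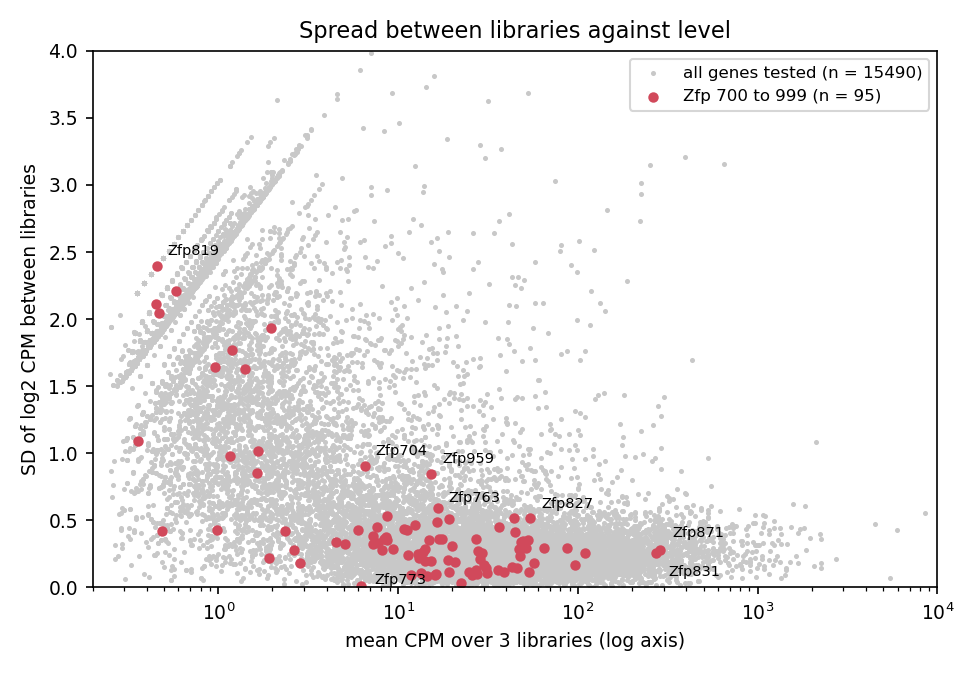
SD of log2 CPM between the 3 libraries (vertical axis) against mean CPM (horizontal log axis) for the 95 members tested (red) and all 15490 genes tested (grey). Spread falls as the level rises, Zfp819 lies high at the left, and members of at least 5 CPM lie around a median of 0.283, with Zfp704 and Zfp959 above the rest.

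Zfp773 was the steadiest member, with 6.23, 6.20 and 6.30 CPM. Zfp949 (22.0, 22.0 and 22.9 CPM), Zfp759, Zfp846 and Zfp810 followed, with an SD of log2 CPM under 0.1 in each. Among members with a mean of at least 2 CPM the largest spread was that of Zfp704, at 11.3, 3.21 and 5.01 CPM (SD of log2 CPM 0.909). Replicate 1 stood far above the other libraries for this gene. Zfp959 stood at 13.7, 7.56 and 24.7 CPM and was highest in replicate 3.

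The other members with large spreads did not share an order of libraries. Zfp763 (22.6, 10.1 and 17.2 CPM) and Zfp870 (12.2, 5.78 and 8.13 CPM), which lie in the same cluster on chromosome 17, were highest in replicate 1 and lowest in replicate 2. Zfp827, Zfp865 (32.2, 63.5 and 37.0 CPM) and Zfp783 (16.3, 27.5 and 14.1 CPM) were highest in replicate 2. Zfp764 (10.7, 19.1 and 19.3 CPM) was lowest in replicate 1. RefSeq lists Zfp783 as a long non-coding RNA gene, the only member not listed as protein-coding.

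With TMM scaling, replicate 3 was the highest for 44 of the 95 members (46.3%), replicate 1 for 26 (27.4%) and replicate 2 for 25 (26.3%), whereas all genes tested divided as 45.2% in replicate 1, 32% in replicate 2 and 22.8% in replicate 3. Among members of at least 5 CPM, 40 of 76 (52.6%) were highest in replicate 3, 23 in replicate 2 and 13 in replicate 1, against 30.4%, 46.4% and 23.2% of 9590 genes. Of the 19 members under 2 CPM, 13 were highest in replicate 1, as were 85.5% of all genes at that level. The median log2 difference of replicate 3 over replicate 1 was 0.201 for the members and -0.071 for all genes tested, and over replicate 2 it was 0.157 and 0.049.

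These counts depend on the scaling. With library totals alone, which move the median difference of all genes between replicates 3 and 1 to -0.205, replicate 1 led with 36 members, followed by replicate 3 with 31 and replicate 2 with 28. The members' median difference of replicate 3 over replicate 1 was then 0.0667, still over that of all genes. With DESeq2's size factors the division was 29, 27 and 39, and with mitochondrial genes left out of the totals it was 26, 25 and 44. Lower-numbered Zfp genes had a median difference of 0.219 between replicates 3 and 1, and of 0.008 between replicates 3 and 2, where the members had 0.157. The markers named above differ between the same libraries, as do neutrophil genes (5 genes, 161.4, 64.47 and 651.3 CPM; 4 above 1 CPM), which were highest in replicate 3. Their part in the result was not tested.

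**Figure D4:**
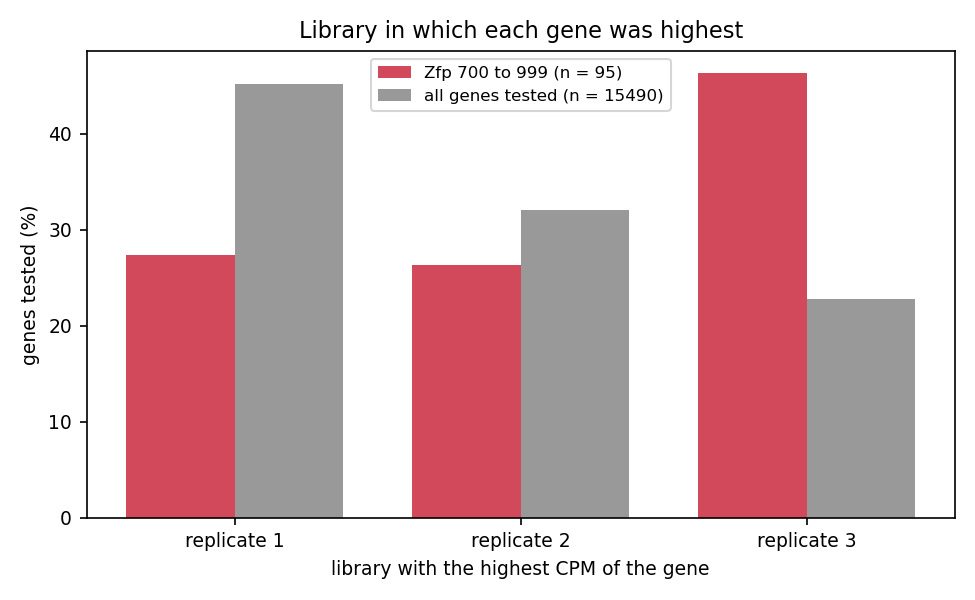
Percent of genes tested (vertical axis) whose highest CPM was in replicate 1, 2 or 3, for the 95 members (red bars) and all 15490 genes tested (grey bars), with TMM scaling. Replicate 3 held the highest level of 46.3% of members and of 22.8% of all genes.

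By protein sequence, read from GENCODE M21 coding sequences of 97 members (none for Zfp783 and Zfp939), a KRAB A box pattern was found in 72 and not in 25. A box that departs from the pattern would be missed, so the 25 may include KRAB proteins. The median level was 5.085 CPM per kilobase with the KRAB pattern and 4.629 without. Above 1 CPM were 58 of 69 tested with the pattern and 20 of 24 without, and above 50 CPM 2 and 3. The spread was alike, with median SDs of log2 CPM of 0.297 and 0.294. The library of the highest level, with TMM scaling, was less alike. Of the 69 KRAB members, 38 were highest in replicate 3, 17 in replicate 1 and 14 in replicate 2, against 6, 8 and 10 of the 24 others. The difference between the classes was not tested.

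The number of C2H2 fingers by pattern had a median of 11.5 in KRAB members and 6 in the others. Zfp748 (51.5 ± 9.98 CPM) and Zfp788 (20.7 ± 2.79 CPM) had the most, with 23 each. No finger was found by pattern in the products of Zfp703, Zfp750, Zfp781, Zfp839, Zfp935 and Zfp957. The 58 members with 10 or more fingers had a median of 4.436 CPM per kilobase and the 33 with 1 to 9 had 6.523. The difference between these medians was not tested.

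Many members are neighbours. With gaps of at most 500 kb, 57 members fell into 12 runs of 3 or more, 4 into pairs and 38 stood alone. Members in such runs had a median of 4.948 CPM per kilobase and the other 42 had 4.452. The largest run, chr17:21565816-22867309, held 12 members over 1301.5 kb, all with the KRAB pattern. Its levels ran from 0.321 CPM per kilobase for Zfp820 (2.43, 0.143 and 0.987 CPM) to 17.2 for Zfp943 (41.0, 41.6 and 58.3 CPM), with a median of 4.91. Of its 12 members, 7 were highest in replicate 3.

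Other runs, named after their values were seen, differed in width. The 5 members on chr13:67038594-67683512 lay between 4.18 and 10.8 CPM per kilobase, while the runs that follow were wider. On chr17:32765496-33033381, 6 KRAB members reached from 0.755 CPM per kilobase for Zfp811 to 26.3 for Zfp871. On chr9:22188166-22307814, Zfp872 (0.151 CPM per kilobase) and Zfp810 (4.95) flank Zfp809 (20.4). In the run at chr6:47815536-48086986, of Zfp786, Zfp783, Zfp956, Zfp777 and Zfp746, 4 of the 5 were highest in replicate 2, and Zfp786 (1.59, 0 and 0.152 CPM) was highest in replicate 1. The other members of that run stood between 4.37 CPM per kilobase (Zfp783) and 14.3 (Zfp777).

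**Figure D5:**
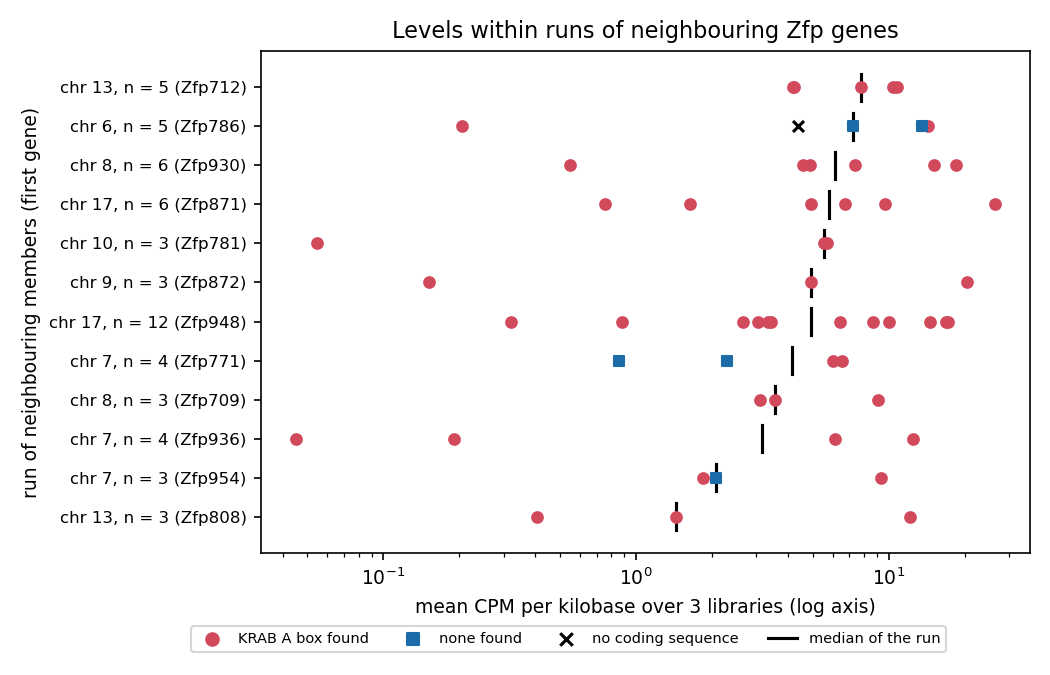
Mean CPM per kilobase over the 3 libraries (horizontal log axis) of each member in the 12 runs of 3 or more neighbouring members (one run per row, named by chromosome, number of members and first gene), with the run's median as a bar. Circles are members with a KRAB A box pattern, squares those without and the cross a member with no coding sequence; the row of 12 spans 0.321 to 17.2 CPM per kilobase.

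Shared sequence limits how far some neighbours can be told apart. The median member shared 2.194% of the 50-base words of its transcripts with other genes, and 24 members shared more than 10%. The 75 members with 10% or less had a median of 5.403 CPM per kilobase and the 24 others 4.44. Zfp784 shared 94.7% of its words with annotated transcripts of Zfp865, its neighbour on chromosome 7, so the counts of this gene are uncertain. The same holds for Zfp935 (26.3, 32.8 and 31.0 CPM), whose words all occur in other genes (99.2% in Gm49359), and for the low Zfp781 (96.3% in other genes, most of it in Gm3055) and Zfp960 (81.4% in Zfp97).

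The pair of members most alike in protein sequence was Zfp942 and Zfp944, with 388 identical residues (78.86%). Zfp942 stood at 41.2, 45.9 and 56.7 CPM (14.6 ± 2.43 CPM per kilobase) and Zfp944 at 24.6, 24.9 and 34.4 CPM (10.05 ± 2.00 CPM per kilobase). Both were highest in replicate 3. They shared few 50-base words, 5.80% of those of Zfp942 and 10.4% of those of Zfp944 occurring in any other gene. In the finger shown above no stretch of 50 bases is free of differences.

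The members' promoters, windows of 300 bases from 250 before to 50 after the start, were in RefSeq's table for 87 members. CCAAT, on either strand, was found in 55 of them (63.2%), against 40.8% of lower-numbered Zfp genes, 42.7% of Olfr genes and 38.7% of the 13783 genes of the count table with a window. Members with the KRAB pattern held it in 67.2% and the others in 50%. The median level was 4.907 CPM per kilobase with CCAAT and 6.252 without. Searched in the same way on either strand, GGGCGG was in 43.7% of the members' windows (54% of all genes), CCGGAAG in 11.5% (13.6%) and AAGATGGC in 5.75% (3.68%). The motif of NRF1 was in 4.6% (7.92%), TGACGTCA in 1.15% (2.71%) and TATAAA in 3.45% (10.6%). A CpG occurred 11 times in the median member window, against 17 in all genes, 16 in lower-numbered Zfp genes and 1 in Olfr genes. Each match is a match of letters only.

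Genes for proteins through which KRAB zinc fingers act were read as RNA in these pools. Of 18 corepressor genes listed, 17 were measured, and all 17 were above 1 CPM (68.6% of all genes tested), 10 above 50 CPM (19.9%), 5 below and 2 not separated. Their median was 15.46 CPM per kilobase, against the members' 4.907. Trim28, the direct partner of KRAB domains, stood at 102, 153 and 124 CPM, and Setdb1, the methyltransferase it recruits, at 58.6, 76.0 and 65.6 CPM. With TMM scaling both were lowest in replicate 1 and highest in replicate 2, whereas 38 of 69 KRAB members were highest in replicate 3. With library totals alone, 31 of all 95 members were highest in replicate 3, so that majority depends on the scaling. Per kilobase the remodellers Chd3 (133 CPM per kilobase) and Chd4 (126) and the partner of Setdb1, Atf7ip (101), were the highest of the list, and Sumo2 the lowest (3.43).

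Markers of other cells gave further context for a sorted pool. B cell genes summed to 188.8, 78.31 and 112.6 CPM (all 5 above 1 CPM), CD8 genes to 26.84, 947.4 and 258.4 CPM (both above), NK genes to 58.33, 494.3 and 198.6 CPM (all 5 above) and monocyte genes to 594.3, 780.7 and 312.5 CPM (all 4 above). The 4 stromal genes summed to 14.69, 2.068 and 3.19 CPM and the 4 melanoma genes to 5.284, 0.5705 and 2.658 CPM, with 1 stromal and 3 melanoma genes at 0 in replicate 2. Which of the cells present held the Zfp transcripts was not tested.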

How the data were processed

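RNA from 3 sorted cell pools of one group was sequenced with a stranded total-RNA kit, per the labels' protocols. The authors deposited 1 table of raw counts per gene with gene lengths. The submitters' processing notes name bcl2fastq, STAR 2.75, featureCounts, DESeq2 1.18.1 and the mm10 build, and the strand setting and treatment of multi-mapping reads are not given in the sources used here.

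Counts were analysed in R 4.3.3 with edgeR 4.0.16 (TMM; quasi-likelihood fit with an intercept; genes with at least 10 counts in sum). Each level was tested, two-sided, against 1 CPM, 50 CPM and the pooled Olfr rate per kilobase of each library, entered through the offsets. Benjamini-Hochberg adjustment ran over all 15490 genes tested, at 0.05. Alternatives used DESeq2 1.42.0, limma 3.58.1, other scalings and filters, and each replicate left out. Protein patterns, alignments (Biopython 1.88) and 50-base words came from GENCODE M21 transcripts, and promoters and coordinates from RefSeq GRCm38.p6.

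The members, lists and tests were chosen with earlier results of these data known. Named members are the 10 highest by CPM per kilobase and by CPM, the 8 largest and 5 smallest spreads among means of at least 2 CPM, the 5 lowest, those next to each threshold, extremes of finger number and identity, the ends of the largest run, and members with a known role. Zfp708 and Fam208a, on the lists, were not analysed here.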

Additional observations from a re-analysis of the deposited data

How the results depend on the processing

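No count of members called moved by 1.5 times under any alternative run, and no direction of a call turned. Leaving out each replicate in turn gave 77 to 80 members above 1 CPM, 5 to 6 above 50 CPM, 85 to 88 above the pooled Olfr rate (without replicate 3, Zfp704, Zfp941 and Zfp964 lost this call) and 55 to 73 below 50 CPM; the count of 55 was that without replicate 3, and edgeR's filterByExpr, which left 81 members to test, gave 58, and 81 above the Olfr rate. With limma-trend 93 members were above that rate, Zfp786, Zfp791, Zfp819, Zfp820 and Zfp853 among them. Nearly all genes tested under filterByExpr and most of those tested with limma-trend were above that rate too. Neither count therefore sets the members apart from other genes. With mitochondrial genes left out of the totals, 7 members were above 50 CPM and the median level was 5.608 CPM per kilobase in place of 4.907. The number of all genes called above 50 CPM also rose under that setting. In all, 30 members gained or lost a call under at least 1 alternative, which includes members left untested by a filter. Zfp784 and Zfp771 lost their call above 1 CPM without replicate 3 (log2 fold over 1 CPM 1.34 and 1.61), Zfp771 also without replicate 2 (1.42). Zfp947 gained it under 4 settings and Zfp768 with filterByExpr. Zfp869 was above 50 CPM under 5 settings, among them library totals alone (log2 fold over 50 CPM 0.36), and Zfp945 under 1. Zfp819 was below 50 CPM under 5 settings. Without replicate 3, 16 members lost their call below 50 CPM, Zfp768 among them (-4.54). The share of all genes tested with this call fell further than that of the members. The loss was thus not particular to the members. Without replicate 2, Zfp939 gained its call above 1 CPM. The division of highest libraries under other scalings was added after seeing the data. No paired analysis was possible because the design holds 1 group only. Depth limits the members under about 2 CPM, where 3 counts are 0.214 to 0.317 CPM.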
